A study of Mus musculus with 8 samples.

Results

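MicroRNA genes were examined in ear skin of adult mice that had lost corneodesmosin from the epidermis. The members were all probe sets of the authors' deposited table of KO against WT differences whose gene symbol begins with Mir and a digit, or with Mirlet. These were 68 probe sets for 49 genes, among 3024 genes with a symbol in that table, and each gene was taken at its probe set of highest mean signal. The table holds only probe sets with an adjusted p under 0.05 and a log2 difference of at least 0.5 either way, so the members were chosen by the KO against WT difference itself. Their differences are therefore given as a description, without a test, and nothing rests on the fact that they differ.

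KO mice (Cdsniep-/-) carried KRT14-CreERT2(tg/0) and Cdsn fl/fl, and WT mice carried KRT14-CreERT2(tg/0) and Cdsn wt/wt. Both genotypes had the Cre transgene, the C57B/6J background of the labels and 100 µg of 4-hydroxytamoxifen per ear and day on both ears for up to 15 days, begun at 7 to 12 weeks of age. The Cre acts only where the KRT14 promoter is active, chiefly in basal keratinocytes, while whole ear skin was profiled, with its dermis, vessels, nerves, muscle and leukocytes. There were 4 mice of each genotype, each on an array of its own, and the number of arrays limits the precision. Values are log2 signals of the Affymetrix Gene Mouse 2.0 ST array, processed with RMA.

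A microRNA gene is transcribed as a long primary transcript, from which Drosha and DGCR8 cut a hairpin and Dicer then a short mature strand. Argonaute proteins carry that strand, and its seed, bases 2 to 8 from the 5′ end, is the main contact with target mRNAs. In skin, epidermal microRNAs such as those of the miR-203 and miR-205 genes take part in keratinocyte differentiation, and miR-21 is known for its increase in wounded and inflamed skin. The deposited table assigns each probe set to a microRNA gene, and where its probes lie on that gene was not examined. Total RNA was extracted on RNeasy mini columns, per the labels' protocols. Such columns retain short RNA poorly, and mature microRNAs were not measured separately from longer RNA over the hairpin.

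RefSeq entries were found for 48 of the 49 genes, 47 by accession and 1 by symbol, all on the chromosome the deposited table gives. Mature sequences were at hand for 39 of them, 63 strands in all with 62 distinct seeds. The strands below belong to the members that the results return to, with the seed in capitals. They are not all the strands these genes can give, since for some, such as Mir301b, only 1 arm was at hand. Sequences are those of RefSeq, assembly GRCm38.p6. The first 8 come from genes that were higher in KO and the last 9 from genes that were lower.
miR-28a-5p: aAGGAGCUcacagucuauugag
miR-28b: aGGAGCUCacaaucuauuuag
miR-21a-5p: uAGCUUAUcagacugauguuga
miR-511-3p: aAUGUGUAgcaaaagacaggau
miR-9-5p: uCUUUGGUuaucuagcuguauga
miR-721: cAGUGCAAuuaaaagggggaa
miR-370-3p: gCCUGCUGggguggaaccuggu
miR-194-5p: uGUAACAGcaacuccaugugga
miR-130b-3p: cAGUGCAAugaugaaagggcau
miR-130b-5p: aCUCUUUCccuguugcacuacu
miR-301b-5p: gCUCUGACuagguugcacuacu
miR-451a: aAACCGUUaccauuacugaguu
miR-129-5p: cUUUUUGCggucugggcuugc
miR-138-5p: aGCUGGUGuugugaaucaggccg
miR-221-3p: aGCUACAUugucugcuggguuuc
miR-93-5p: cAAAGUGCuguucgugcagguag
let-7g-5p: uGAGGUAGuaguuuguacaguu

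Each of the 8 arrays can be set against the others before the members are read. The array medians over all 33793 probe sets spanned 5.52 to 5.59 for KO and 5.43 to 5.49 for WT, and the log2 differences of all probe sets had a median of 0.094. Cdsn itself had 10.31, 8.89, 9.82 and 9.49 in KO and 12.05, 11.76, 12.13 and 12.06 in WT. Of 11 keratinocyte genes listed, 3 were in the table, Cdsn lower and Krt1 and Ivl higher, beside 10.1 percent of all probe sets. Krt1 and Ivl were at 12.63 to 13.56 and 9.77 to 10.65 on the KO arrays and at 10.30 to 12.56 and 8.83 to 9.76 on the WT arrays. Like the members, they were in the table because they differ. With single arrays left out, each lost the adjusted p under 0.05 (limma) in 5 of 8 fits. WT replicate 1 stood apart from the other WT arrays in some transcripts: S100a8, a calprotectin subunit of neutrophils and stressed keratinocytes, was at 11.31 to 12.47 in KO and at 11.57 in that array, against 5.65 to 8.03 in WT replicates 2 to 4. On a scale from the mean of WT replicates 2 to 4 (0%) to the KO mean (100%), the microRNA genes had a median position of -4.02% in WT replicate 1, with a range of -104% to 57.9% and 3 genes above 50%. The other 2975 table genes had a median of 9.48%.

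Of the 49 microRNA genes, 27 were higher in KO and 22 were lower, so 44.9% were lower. Among the other 2975 genes of the table, 748 were lower, or 25.1%. The criteria of the table took 3411 of 33793 probe sets, a percent called of 10.1, with 7.63 percent called higher and 2.47 percent called lower. At an adjusted p under 0.05 alone, 13.1 percent of probe sets were called, 9.91 percent higher and 3.19 percent lower. Nothing can be read from the members' count against these shares, since the criteria chose them. The higher members differed by 0.52 to 1.48 log2 units with a median of 0.75, and the lower members by -0.51 to -0.99 with a median of -0.73. The corresponding medians of the other table genes were 0.71 and -0.69. A difference of 2-fold or more was found in 5 members, or 10.2%, and in 473 other table genes, or 15.9%. The arrays of the genotypes were fully apart in 46 members and overlapped in Mirlet7g, Mir668 and Mir3105, beside 21.5 percent of all probe sets and 94.8 percent of the table's entries without overlap.

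**Figure D1:**
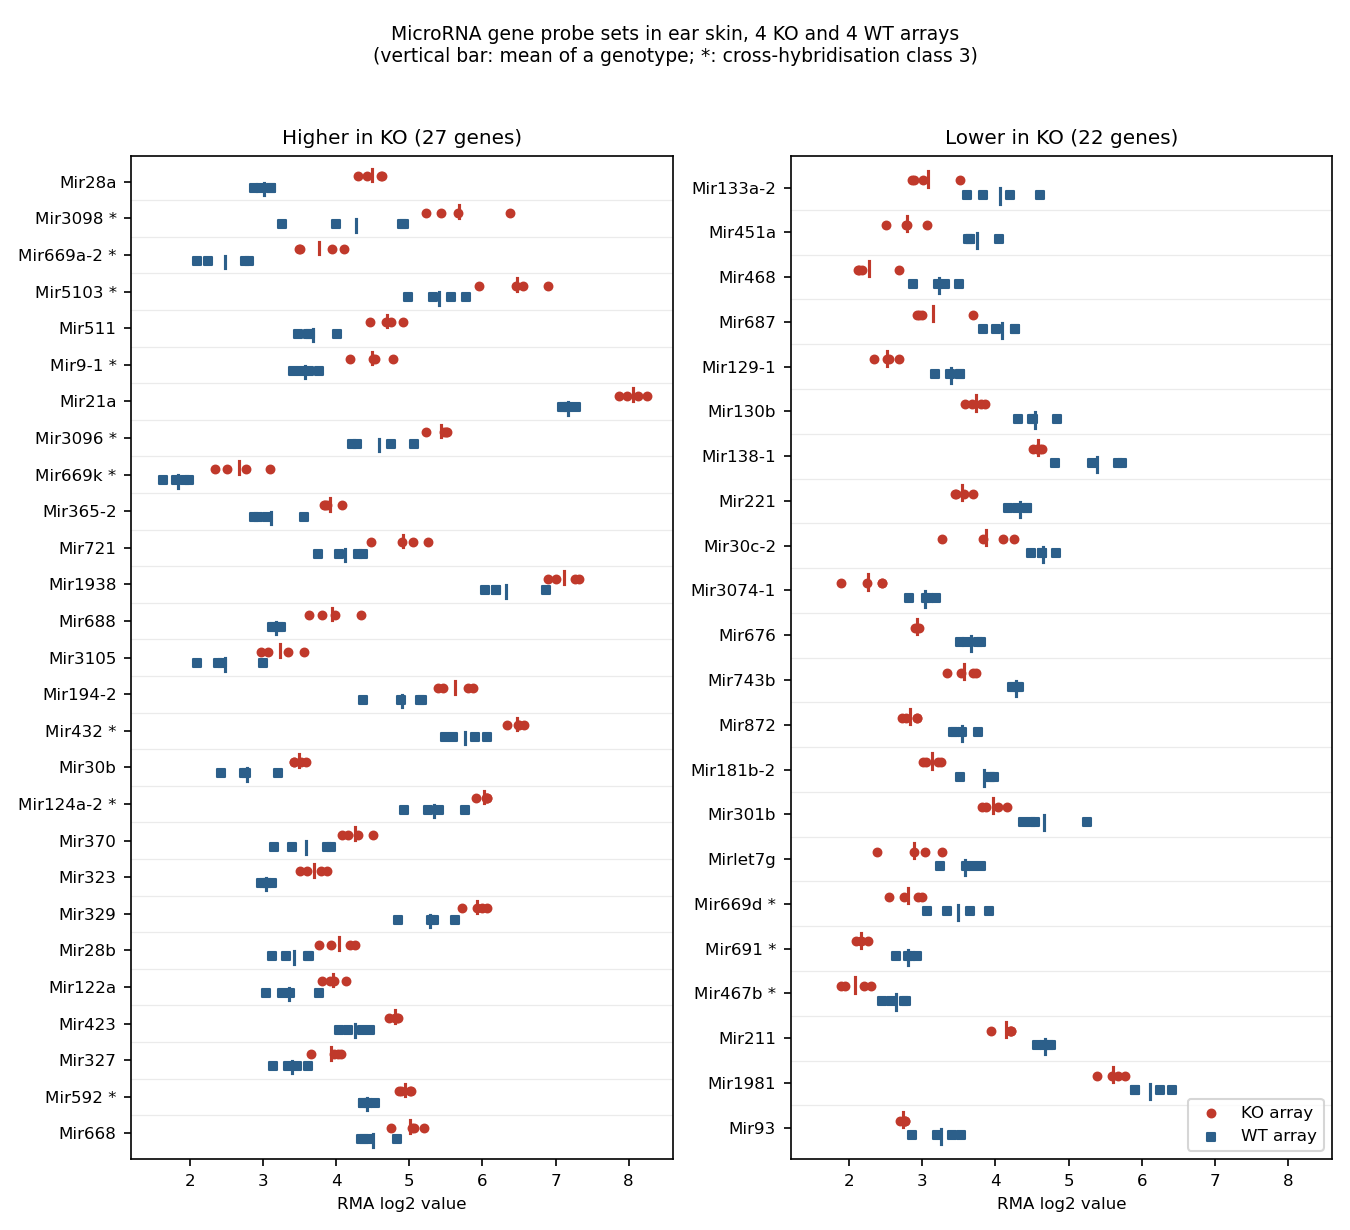
Log2 signal (RMA) of microRNA genes in each array, one row per gene with KO above WT, points for single mice and a short vertical line for the mean of a genotype (n = 4 each). An asterisk marks cross-hybridisation class 3. Mir28a lies at 4.30 to 4.63 in KO and at 2.88 to 3.11 in WT, while the genes that were lower in KO differ by less than 1 log2 unit.

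The largest difference belonged to Mir28a, an intronic gene of Lpp, which encodes an adhesion-site protein. Its signal was 4.63, 4.30, 4.42 and 4.62 in KO and 2.96, 3.11, 2.88 and 3.11 in WT. The means were 4.49 ± 0.16 for KO and 3.01 ± 0.12 for WT (SD, n = 4 each), a difference of 1.48 or 2.79-fold, and every KO array lay more than 1 log2 unit above every WT array. Mir28b, on another chromosome, had 4.26, 4.19, 3.93 and 3.77 in KO and 3.32, 3.12, 3.61 and 3.63 in WT, a smaller difference of 0.61 with a gap between the groups. Its mature strand was close to miR-28a-5p: 19 of 21 aligned bases were the same once shifted by 1 base, and AGGAGCUCACA is common to both. Because of the shift the seeds are not the same, and the seed of miR-28a-5p stands at bases 1 to 7 of miR-28b.

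Mir21a was the brightest member, at percentile 75.5 of all probe sets, and had 47 probes. Its product is among the best known microRNAs of inflamed and wounded skin and of many tumours. Signals of 8.25, 8.12, 7.98 and 7.87 in KO stood against 7.12, 7.28, 7.17 and 7.10 in WT. The means were 8.05 ± 0.16 for KO and 7.17 ± 0.08 for WT (SD, n = 4 each), a difference of 0.89 or 1.85-fold, and the groups were well apart. The hairpin is shown because it is the stretch the gene is named for, with both mature arms in capitals.
Mir21a: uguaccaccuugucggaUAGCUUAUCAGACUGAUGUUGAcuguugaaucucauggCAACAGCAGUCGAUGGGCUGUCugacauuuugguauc
RefSeq places Mir21a within Vmp1, a gene of autophagy, on the same strand. Vmp1 has no entry in the deposited table.

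Mir511 lies in an intron of Mrc1, which encodes the macrophage mannose receptor CD206, and is known from macrophages and dendritic cells. It had 4.68, 4.91, 4.75 and 4.47 in KO and 3.62, 3.65, 4.01 and 3.49 in WT, with means of 4.70 ± 0.18 for KO and 3.69 ± 0.22 for WT (SD, n = 4 each). The difference was 1.01 or 2.02-fold, and Mrc1 has no entry in the table. Mir9-1, whose product is best known from neural progenitors and also from myeloid cells, had 4.50, 4.18, 4.77 and 4.53 in KO and 3.41, 3.52, 3.63 and 3.77 in WT, a difference of 0.92. Its probe set is of cross-hybridisation class 3, a mark in the table for probes that also match other transcripts. In bulk skin, a change in the number of cells of a type cannot be told apart from a change of RNA per cell. Of 14 neutrophil markers, 6 were in the table and all of these were higher in KO, by 0.85 for Camp to 5.22 for S100a9. The table's criteria took 10.1 percent of all probe sets, 7.63 percent as higher. S100a8 is also made by stressed keratinocytes and so does not mark neutrophils alone. Ly6g, a defining neutrophil antigen, had 7.91, 7.93, 4.72 and 4.62 in KO and 4.12, 3.58, 3.05 and 3.33 in WT. Ly6g and S100a8 lost the call after quantile normalization, with adjusted p values of 0.0611 and 0.0528 in limma, and in 6 and 7 of 8 fits with single arrays left out. The part of leukocytes in the microRNA differences was not tested.

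Mir3098, Mir5103 and Mir3096 are higher members for which no role is named here. Mir3098 had 6.38, 5.23, 5.67 and 5.43 in KO and 4.92, 3.99, 4.89 and 3.26 in WT, a difference of 1.41 with the widest spread of all members. Mir5103 had 6.90, 5.96, 6.55 and 6.46 in KO and 5.77, 5.33, 4.98 and 5.58 in WT, a difference of 1.05. Mir3096 had 5.48, 5.51, 5.23 and 5.51 in KO and 4.75, 4.22, 4.28 and 5.07 in WT, a difference of 0.85. All 3 probe sets are of class 3, and the genotypes lay close together without overlap, with the smallest gap in Mir3096. Mir365-2 had 3.83, 3.84, 4.09 and 3.88 in KO and 2.93, 2.88, 3.05 and 3.56 in WT, a difference of 0.81, and is of class 1, the mark for probes specific to the gene.

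The largest difference among the lower members was that of Mir133a-2, which shares a transcript with Mir1a-1 and is a microRNA of striated muscle. It had 3.01, 3.51, 2.89 and 2.86 in KO and 3.61, 3.83, 4.61 and 4.20 in WT, and KO replicate 2 came close to WT replicate 1 without overlap. The means were 3.07 ± 0.30 for KO and 4.07 ± 0.44 for WT (SD, n = 4 each), so KO stood at 50.2% of WT. The table's criteria took 10.1 percent of all probe sets, and nothing is read from the list counts given next. Of 12 striated muscle microRNA genes listed, Mir133a-2 was the 1 in the table. Of 21 protein-coding markers of that tissue, the 1 in the table was Tnnc2, fast skeletal troponin C, with 9.59, 9.39, 9.98 and 10.23 in KO and 10.34, 10.48, 10.66 and 10.55 in WT, a difference of -0.71. With single arrays left out, Tnnc2 and Mir133a-2 each lost the call in 5 of 8 fits. Whether the muscle content of the ear pieces bears on Mir133a-2 was not tested.

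Mir451a, an erythroid microRNA whose hairpin is cut by Argonaute 2 and not by Dicer, had 3.06, 2.79, 2.78 and 2.51 in KO and 3.63, 3.65, 3.65 and 4.05 in WT. The means were 2.79 ± 0.22 for KO and 3.74 ± 0.20 for WT (SD, n = 4 each), a difference of -0.96. Mir129-1 and Mir138-1, both best known from brain, were lower as well. Mir129-1 had 2.68, 2.52, 2.34 and 2.54 in KO and 3.38, 3.51, 3.17 and 3.51 in WT, a difference of -0.87. Mir138-1 had 4.61, 4.57, 4.52 and 4.63 in KO, a narrow range, and 5.74, 4.81, 5.31 and 5.67 in WT, a difference of -0.80. The groups were apart in both, although Mir138-1 came close in WT replicate 2. Mir468, for which no role is named here, had 2.13, 2.68, 2.11 and 2.18 in KO and 2.87, 3.50, 3.31 and 3.21 in WT, a difference of -0.95. Mir30c-2 had 4.11, 3.83, 4.25 and 3.27 in KO and 4.64, 4.48, 4.64 and 4.83 in WT, a difference of -0.78. Mir3074-1, which RefSeq places in Aopep on the opposite strand, had 1.89, 2.25, 2.46 and 2.45 in KO and 3.19, 3.10, 3.05 and 2.82 in WT, a difference of -0.78. Mir468 and Mir3074-1 lie at the dim end of the array, at percentiles 9.16 and 8.06.

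All 3 members on the X chromosome were lower. Mir221, whose product restrains the cell-cycle inhibitor p27 and is common in leukocytes and vessels, had 3.57, 3.70, 3.45 and 3.45 in KO and 4.17, 4.43, 4.30 and 4.43 in WT, a difference of -0.79. Mir676 lies in an intron of Eda, the ectodysplasin gene of hair and sweat gland development, and had 2.93, 2.93, 2.90 and 2.95 in KO and 3.52, 3.60, 3.76 and 3.80 in WT, a difference of -0.74. Its KO arrays were closer together than those of any other member, with an SD of 0.024. Mir743b, of an X-linked cluster known from testis, had 3.34, 3.52, 3.69 and 3.73 in KO and 4.33, 4.23, 4.31 and 4.26 in WT, a difference of -0.71. Of the 138 table genes on the X chromosome, 35 were lower.

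Some members lie near one another or inside a gene that is itself in the table. On chromosome 12, 6 members were higher and 0 lower, and 5 of these, Mir370, Mir323, Mir329, Mir432 and Mir668, belong to the imprinted Dlk1-Dio3 region, whose microRNAs and long RNAs are transcribed from the maternal chromosome. Of the 121 table genes on chromosome 12, 93 were higher. Mir323, which has Mir329 within 10 kb, had 3.60, 3.79, 3.87 and 3.51 in KO and 3.01, 3.13, 3.06 and 2.98 in WT, a difference of 0.65. Mir329 had 5.93, 6.06, 5.99 and 5.73 in KO and 5.30, 5.62, 5.35 and 4.84 in WT, also a difference of 0.65. Mir432 had 6.33, 6.49, 6.50 and 6.57 in KO and 5.48, 5.90, 6.06 and 5.60 in WT, a difference of 0.71. KO and WT arrays did not overlap in any of these 3, and the WT arrays were the more scattered in Mir329 and Mir432. Mir370 had 4.30, 4.50, 4.16 and 4.08 in KO and 3.93, 3.40, 3.87 and 3.15 in WT, a difference of 0.67, and Mir668 was higher by 0.52. After quantile normalization Mir329, Mir370 and Mir668 were no longer called, with adjusted p values of 0.0698, 0.0837 and 0.0992 in limma, and with single arrays left out they lost the call in 6, 7 and 6 of 8 fits. Rian, a long noncoding RNA of the same region that RefSeq places around Mir370, was lower in KO, with 5.17, 5.47, 5.23 and 5.45 in KO and 6.00, 5.92, 5.84 and 5.59 in WT, a difference of -0.50.

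The other chromosome 12 member, Mir1938, lies in Ifrd1, a gene of muscle regeneration and neutrophil function, and the signals of gene and host ran the same way. Mir1938 had 7.32, 7.01, 6.90 and 7.26 in KO and 6.18, 6.04, 6.19 and 6.87 in WT, a difference of 0.80. Ifrd1 had 9.84, 10.06, 9.61 and 9.26 in KO and 9.14, 8.94, 9.17 and 9.13 in WT, a difference of 0.60. Quantile normalization took Mir1938 to an adjusted p of 0.0521 and Ifrd1 to 0.114 in limma, and Mir1938 also lost the call in 6 of 8 fits with single arrays left out. Mir687 lies in Rb1, the retinoblastoma tumour suppressor, and was lower in KO, as was the Rb1 probe set taken from the table. Hosts were read only from the table, so both sides of each comparison were chosen for differing. Probe sets of Rb1 or Ifrd1 outside the table were not examined. Mir687 had 2.95, 2.93, 2.998 and 3.70 in KO and 3.83, 4.27, 4.26 and 4.01 in WT, a difference of -0.95. The Rb1 probe set had 2.65, 2.93, 3.55 and 3.55 in KO and 3.63, 4.80, 4.55 and 4.91 in WT, a difference of -1.30, and was dim for a gene used by most cells, at percentile 22.1.

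A large intronic microRNA cluster lies in Sfmbt2, an imprinted Polycomb gene of the placenta on chromosome 2, and its 4 members were divided. Mir669a-2 had 3.50, 4.11, 3.51 and 3.95 in KO and 2.11, 2.80, 2.25 and 2.75 in WT, a difference of 1.29. Mir669k had 2.35, 2.51, 2.77 and 3.10 in KO and 1.63, 1.82, 1.99 and 1.94 in WT, a difference of 0.84. Both ran with Sfmbt2, which had 4.66, 4.96, 4.28 and 4.37 in KO and 3.50, 3.19, 3.73 and 3.09 in WT, a difference of 1.19. Mir669d had 2.75, 2.94, 2.55 and 3.002 in KO and 3.91, 3.65, 3.34 and 3.07 in WT, a difference of -0.68. Mir467b had 1.89, 2.30, 2.20 and 1.94 in KO and 2.45, 2.78, 2.58 and 2.75 in WT, a difference of -0.56. Mir669d and Mir467b, which lie within 10 kb of Mir669k, thus had the opposite sign to it, and all 4 probe sets are of class 3. The 12 probe sets of Mir669a-2 hold identical values, and 8 of the 9 of Mir467b do, so copies of the repeated hairpin were not measured apart.

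**Figure D2:**
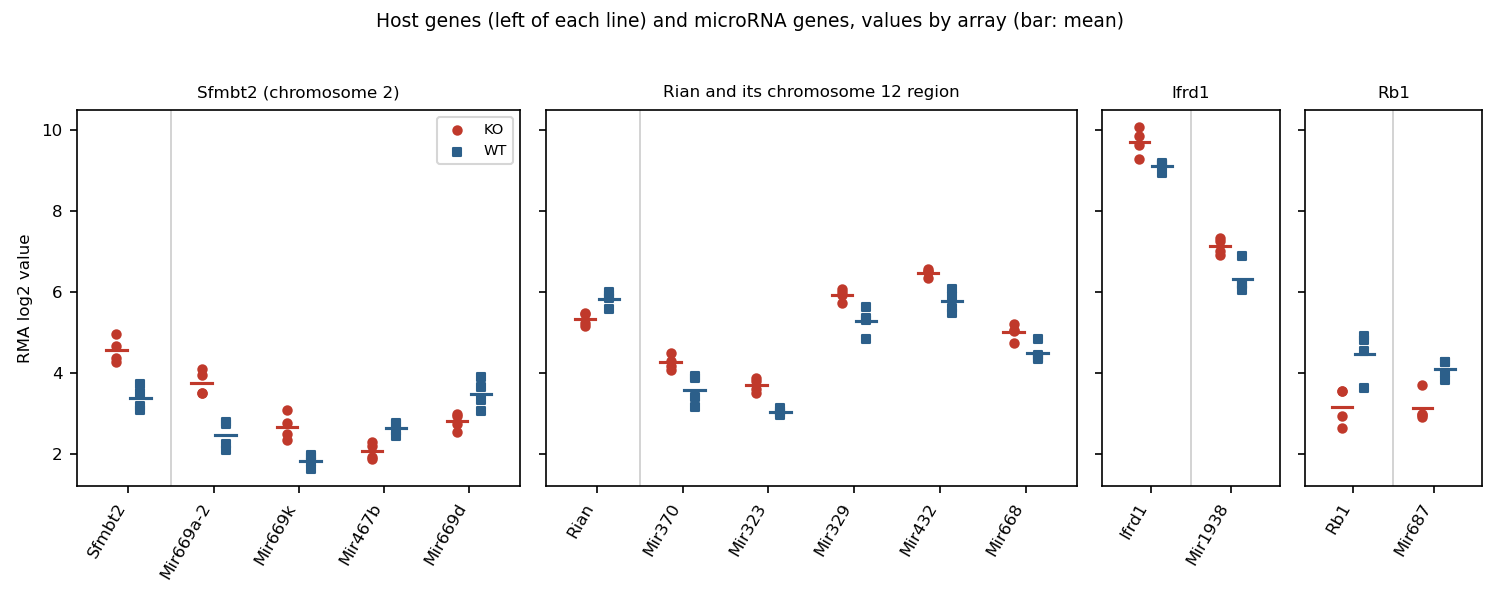
Log2 signal (RMA) of host genes and of microRNA genes inside them, or for Rian in the same region, in each array, with KO left of WT, points for mice and horizontal lines for means (n = 4 each). Ifrd1 with Mir1938 and Rb1 with Mir687 differ in the same direction, while Rian differs by -0.50 and the Sfmbt2 cluster holds both directions.

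Mir130b and Mir301b, neighbours within 10 kb on chromosome 16, were both lower. Mir130b had 3.85, 3.80, 3.68 and 3.58 in KO and 4.31, 4.85, 4.52 and 4.50 in WT, a difference of -0.82. Mir301b had 3.86, 4.16, 3.82 and 4.04 in KO and 4.54, 4.37, 4.49 and 5.26 in WT, a difference of -0.69. Their 5p strands, both shown above, share GUUGCACUACU at bases 12 to 22. Among the 63 mature strands at hand, the seed AGUGCAA was the 1 found in 2 member genes, in miR-130b-3p and in miR-721 from Mir721, an intronic gene of Cux1. Mir721 had 5.05, 4.48, 5.26 and 4.90 in KO and 4.04, 4.37, 3.76 and 4.30 in WT, a difference of 0.80. These 2 strands with a common seed thus came from genes of opposite sign. Quantile normalization took Mir721 to an adjusted p of 0.0616 in limma. The letters AGUGCAA, searched on the hairpin strand alone, were found in 3 of 38 member hairpins, those of Mir130b, Mir301b and Mir721, and in 12 of 1005 mouse hairpins, or 1.19%. In the Mir301b hairpin they lie after the 5p strand, on the arm whose mature strand was not at hand. Whether Mir301b also gives a strand with this seed was therefore not read.

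The epidermal and leukocyte microRNAs listed for this skin were mostly not in the table. Of 41 epidermal genes 2 were members, Mir21a above and Mirlet7g, a let-7 gene in Wdr82. Mirlet7g had 2.88, 2.38, 3.27 and 3.03 in KO and 3.80, 3.25, 3.60 and 3.70 in WT, a difference of -0.69, and KO replicate 3 was above WT replicate 2. Of 20 leukocyte genes 3 were members, Mir511 higher and Mir221 and Mir181b-2 lower. Mir181b-2, studied in lymphocytes and endothelium, had 3.22, 3.26, 3.05 and 3.01 in KO and 3.92, 3.51, 3.98 and 3.94 in WT, a difference of -0.70. The other 39 epidermal and 17 leukocyte genes are either below the criteria or without a named probe set, and are not analysed here. Of 33 genes of microRNA processing and decay, 2 were in the table, both higher. The table's criteria took 10.1 percent of all probe sets, 7.63 percent as higher and 2.47 percent as lower. Nothing is read from the list counts beside these shares. Zc3h12a, the nuclease Regnase-1 that cuts inflammatory mRNAs and microRNA precursors, had 8.78, 8.68, 8.76 and 8.90 in KO and 8.07, 7.29, 7.87 and 8.13 in WT, a difference of 0.94. Snd1, a nuclease associated with the silencing complex, had 9.48, 9.48, 9.21 and 9.32 in KO and 9.01, 9.10, 8.68 and 8.70 in WT, a difference of 0.50. Quantile normalization took Snd1 to an adjusted p of 0.121 in limma, and its call was also lost when any of 5 arrays was omitted.

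The remaining members are given by their differences. Mir688, Mir3105, Mir194-2, Mir30b, Mir124a-2, Mir122a, Mir423, Mir327 and Mir592 were higher by 0.76, 0.75, 0.73, 0.70, 0.68, 0.60, 0.55, 0.54 and 0.52. Among these are Mir122a, the microRNA of hepatocytes, Mir124a-2, a neuronal one, and Mir194-2, of liver and gut. Mir872, Mir691, Mir211, Mir1981 and Mir93 were lower, with differences of -0.71, -0.64, -0.53, -0.51 and -0.51. Mir211 lies in Trpm1 and is a microRNA of melanocytes. Mir93 lies in Mcm7, a replication gene, and marked the edge of the criteria with an adjusted p of 0.04999 and a difference of -0.51 in limma. Just outside were an unnamed probe set with a difference of -0.91 and an adjusted p of 0.05002, and another at 0.50 with an adjusted p of 0.0325.

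Among 25 members inside a host gene of the same strand, 7 had a host in the table, namely Sfmbt2, Rian, Ifrd1 or Rb1. The hosts of the other 18 members, among them Vmp1, Mrc1, Lpp, Trpm1, Mcm7, Cux1, Wdr82 and Eda, had no entry. A host without an entry either missed the criteria or had no named probe set, so no difference between gene and host can be read from it. No member lies on chromosome 17, which holds Cdsn and 159 entries of the table. The members were spread over 18 chromosomes.

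Most members were dim. Signal here describes the brightness of a probe set and not the amount of one RNA against another, since probes differ in affinity. Of the 49 members, 42 lay below the median of all probe sets, 5.50, and 28 lay below the 25th percentile, 12 of them higher and 16 lower in KO. The 7 above the median were Mir21a, Mir1938, Mir432, Mir5103, Mir124a-2 and Mir329, all higher in KO, and Mir1981, lower in KO. The median percentile was 21.2 for the members and 33.3 for the other table genes. Below the median level the table's criteria took 14.7 percent of probe sets, with 10.6 percent higher and 4.04 percent lower. At or above it they took 4.63 percent as higher and 0.9 percent as lower. The files give no background call, so whether a dim probe set was above background was not tested.

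**Figure D3:**
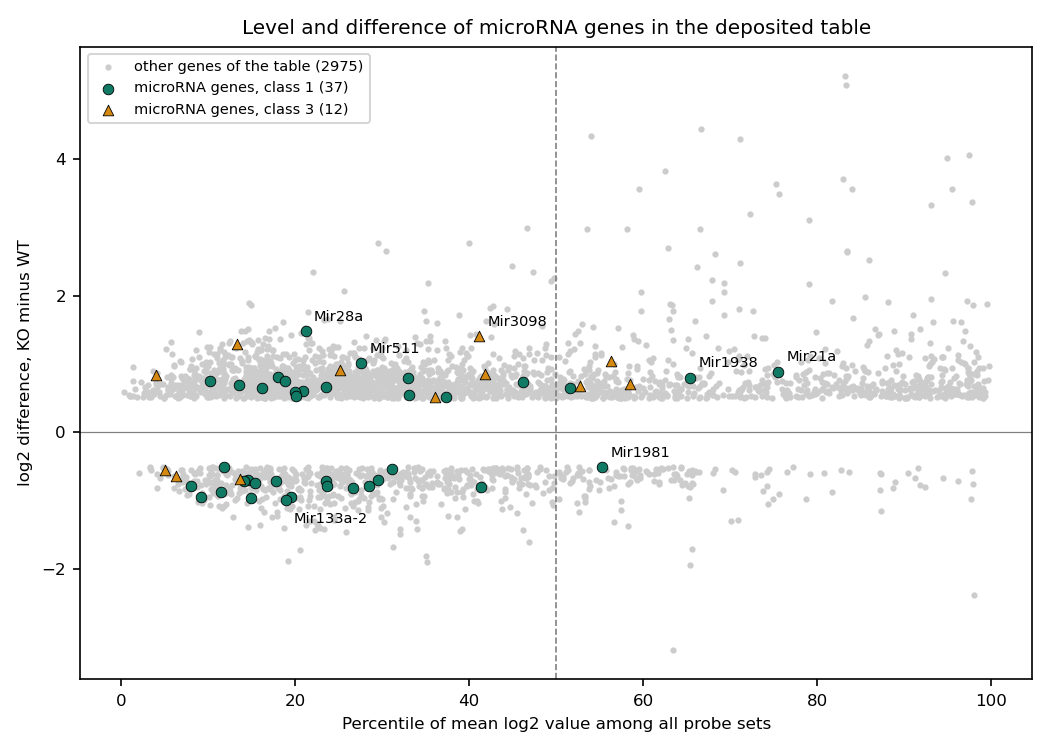
Log2 difference of KO minus WT against the percentile of the mean log2 signal over the 8 arrays among all probe sets, for 49 microRNA genes and for the other genes of the table, with cross-hybridisation class 3 marked apart. Most members lie left of the dashed line at the median of all probe sets, and Mir21a, at 75.5, has the highest percentile of them.

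Class 3 held 12 members, or 24.5%, and 413 of the other table genes, or 13.88%. Of these 12, 9 were higher in KO and 3 were lower. A member had a median of 16 probes, with a range of 7 to 47, and the other table genes a median of 21. The median SD of a member was 0.18 over KO arrays and 0.23 over WT arrays, against 0.199 and 0.195 over all probe sets. The smaller SD was in KO for 63.3% of members, against 47.2% of all probe sets. The adjusted p that chose the members depends on these SDs, and the share among the other table genes is not given here. Nothing is therefore read from this difference in spread.

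How far the members' place in the table depends on single arrays and on scaling was counted with limma, its p-values adjusted by Benjamini-Hochberg across the whole array. With each array left out in turn, 24 members, 11 higher and 13 lower, kept an adjusted p under 0.05 in all 8 fits. In these fits 0 members changed sign, which the 46 members without overlap could not do. The differences were 0.716 to 1.26 times those with all arrays. The number of members called was 29, 30, 34 and 31 without KO replicates 1 to 4 and 34, 31, 26 and 37 without WT replicates 1 to 4. Over all probe sets 2161 to 3504 were called in these fits, against 4428 with all arrays. The share of table entries that kept the call in all 8 fits is not given here, so nothing is read from the count of 24. The higher ones among the 24 were Mir28a, Mir669a-2, Mir511, Mir9-1, Mir21a, Mir669k, Mir365-2, Mir688, Mir432, Mir323 and Mir592. The lower ones were Mir451a, Mir468, Mir687, Mir129-1, Mir130b, Mir221, Mir3074-1, Mir676, Mir743b, Mir872, Mir181b-2, Mir691 and Mir211. The threshold was missed in all 8 fits by Mir1981, and in 7 by Mir3098, Mir370, Mir122a, Mir138-1, Mir301b, Mirlet7g, Mir669d and Mir93. It was missed in 6 fits by Mir1938, Mir3105, Mir194-2, Mir124a-2, Mir329, Mir28b, Mir327 and Mir668, and in 5 by Mir133a-2, Mir30c-2, Mir467b and Mir721. Mir3096 missed it in 4 fits, Mir30b in 2, and Mir5103 and Mir423 in 1 each. The largest adjusted p of any member in these fits was 0.125.

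Scaling moved the balance of directions. The members were chosen by their calls in the deposited values, so under another scaling they can lose calls but gain none. All probe sets can do both: 1078 were called lower as deposited and 1751 after quantile normalization. The percentages of members and of all called probe sets are therefore not a like comparison. In the deposited values 27 members were called higher and 22 lower, which is 55.1% higher, against 75.7% of all called probe sets. After quantile normalization of the 8 arrays 15 were called higher and 22 lower, which is 40.5% higher, against 49.1% of all called probe sets. After centring each array on its median the counts were 16 and 22, or 42.1% higher, against 53.2%. These scalings brought the median difference of all probe sets to -0.021 and -0.005. The 12 higher members that were not called after quantile normalization, Mir3098, Mir721, Mir1938, Mir3105, Mir194-2, Mir124a-2, Mir370, Mir329, Mir28b, Mir122a, Mir327 and Mir668, had adjusted p values of 0.0521 to 0.0992.

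**Figure D4:**
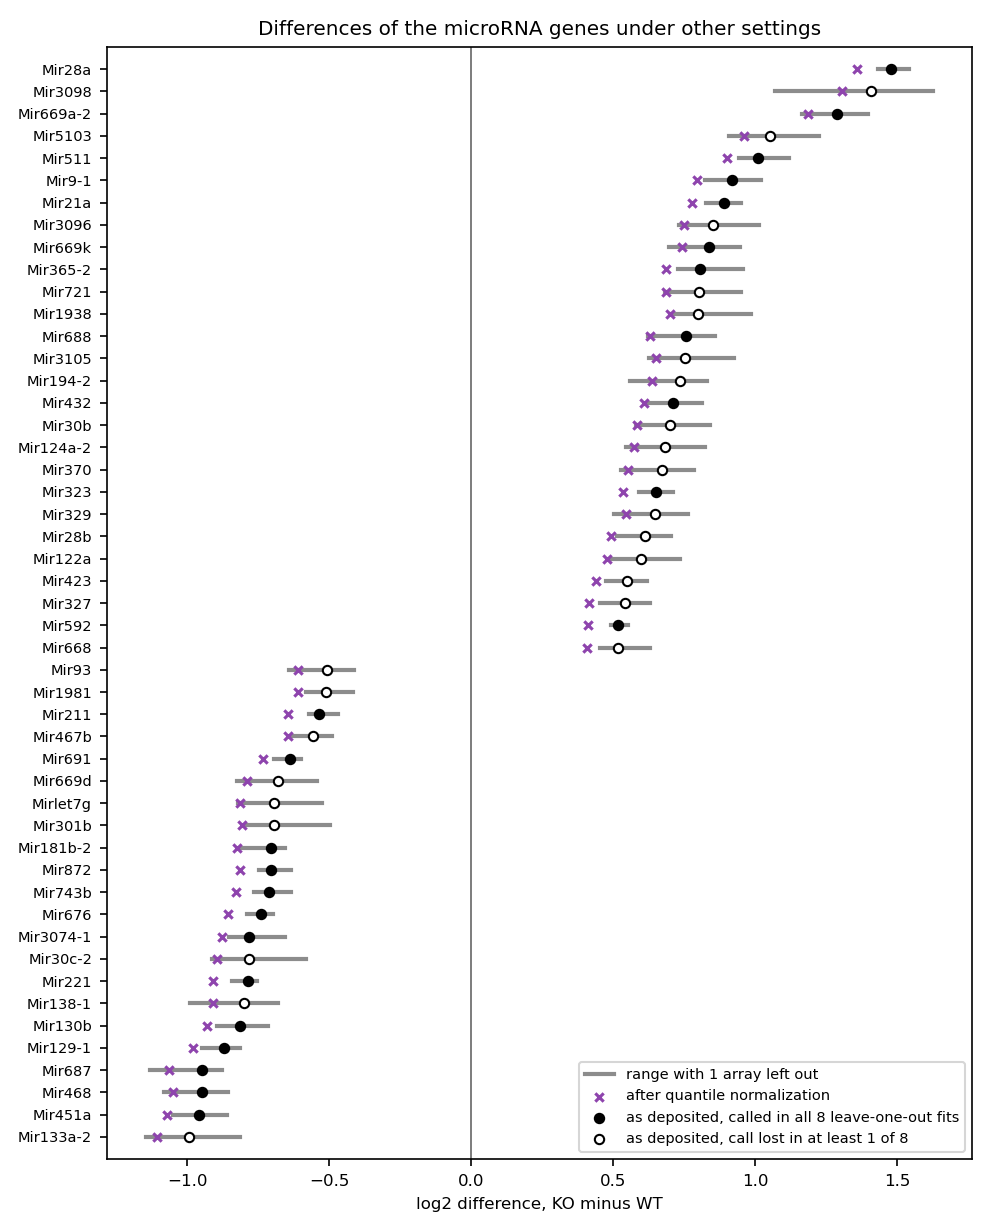
Log2 difference of KO minus WT for each of the 49 microRNA genes, with the deposited values as circles, the range over 8 fits with 1 array left out as a grey line and the value after quantile normalization as a cross. Filled circles mark the 24 genes called in all 8 of those fits (limma, adjusted p under 0.05), and no line reaches 0.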

How the data were processed

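Ear skin of 4 KO and 4 WT mice was measured on 8 arrays. The authors deposited log2 expression values of 33793 probe sets; the submitters' processing notes name RMA, whose version and options, the rule that kept these probe sets and a genome build are not given in the sources used here. They also deposited a table of 3411 entries that compares KO with WT. Per the file headers it gives the log2 fold change, fold as a linear ratio, the raw and the adjusted p-value, gene symbol, accession, chromosome and cross-hybridisation class. A limma fit of the deposited values (limma 3.58.1, R 4.3.3; empirical Bayes, two-sided, Benjamini-Hochberg over all probe sets) gave the same log2 fold changes to within 5.91e-09. The entries were exactly those with adjusted p under 0.05 and a log2 difference of at least 0.5. The fit was tested on simulated data.

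The members and all gene lists were chosen with earlier results of these data known. Names come from the authors' deposited table, so microRNA genes outside it are not analysed here. Described by name with array values were the 10 largest rises, the 10 largest falls and list members (22 genes), plus other members that the text singles out by sequence, neighbour, host or chromosome, chosen after their values were seen; the rest are named with their difference. Sequences and host genes came from RefSeq, GRCm38.p6, used for names and neighbours alone. Alternatives were quantile normalization, median centring, leaving out dim probe sets, no moderation, a mean-variance trend, a replicate block, other choices of probe set, class 1 alone and each array left out. Nothing in the labels gives a batch. Tables used Python 3.11.15, pandas 2.3.3 and numpy 2.4.6, and figures matplotlib 3.10.9.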

Additional observations from a re-analysis of the deposited data

Results flagged for a closer look

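In 8 of the 98 groups of 4 arrays formed by 49 microRNA genes and both genotypes, 1 array lay far from the other 3 by the 95% limit of Dixon's test; chance gives about 1 in 20 such groups. In KO, Mir3096 was at 5.234 in replicate 3 with the others at 5.477 to 5.514, and Mir211 was at 3.939 in replicate 3 with the others at 4.203 to 4.214. Mir124a-2 was at 5.912 in KO replicate 2 with the others at 6.044 to 6.065, and Mir468 at 2.677 in the same array with the others at 2.115 to 2.178. Mir93 was at 2.692 in KO replicate 1, beside 2.75 to 2.76, and Mir687 at 3.696 in KO replicate 4, beside 2.928 to 2.998. In WT, Mir181b-2 was at 3.51 in replicate 2, beside 3.923 to 3.98, and Mir451a at 4.046 in replicate 4, beside 3.627 to 3.653. Several of these gaps arise because the other 3 arrays lie very close together, as for Mir93.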

How the results depend on the processing

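All 49 members kept their sign in each of the 15 alternatives in which they were fitted. This was largely fixed in advance, so nothing is read from it. Omitting moderation or dim probe sets, the mean-variance trend and the replicate block leave the differences themselves unchanged. With 1 array left out, the 46 members without overlap cannot change sign. Leaving out the probe sets below the median level left 7 members to test, of which 3 were called, and 718 of 16897 probe sets were called in all. Mir1938, Mir124a-2, Mir329 and Mir1981, tested with the same differences, were not called there. Without empirical Bayes moderation 26 members were called, and the count over all probe sets is not given here. With 1 array left out, 26 to 37 members and 2161 to 3504 probe sets were called, and the median difference of the members was 0.498 to 0.563, against 0.54 with all arrays. The median lies between the higher and the lower members and so turns with small changes of their number: over the 37 members of class 1 it was -0.509, and over the 7 bright members 0.711. Quantile normalization left 37 and median centring 38 members called, with 3440 and 3417 probe sets called in all. With a mean-variance trend 47 members and 4477 probe sets were called. With the average of a gene's probe sets 48 members were called and with its dimmest probe set 49. These counts could hardly differ from 49, since 2 members have several probe sets and all of those met the table's criteria. The 1 member lost under averaging was Mir93, with the same difference and an adjusted p of 0.0502 in limma. Same-numbered KO and WT arrays had correlations of 0.55, -0.06, 0.28 and 0.30 of their deviations from the group means. Differently numbered arrays had -0.49 to 0.30. For KO replicates 1, 3 and 4 the same-numbered WT array had the highest correlation, and for KO replicate 2 it was WT replicate 1. The labels name no pairs, so the main fit has none, and whether the replicate numbers share an effect was not tested. With the replicate number as a block 45 members and 5150 probe sets were called, against 49 and 4428 without it. The cause of calls lost without the dim probe sets, under scaling and without moderation was not tested. Signal over background is not given in the files, which limits what the dim members can show.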
